A study of Homo sapiens with 12 samples.

Results

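Translation initiation and elongation factors are the proteins that load ribosomes onto mRNA, choose the start codon and carry the ribosome along the coding sequence. Their genes were taken from the deposited gene tables by symbol, as those starting with EIF or EEF and a digit, without the EIF4EBP genes, the names with a hyphen and the pseudogenes. The rule found 65 genes among 28008, out of 75 with such a start. The rule itself used no measured value, though the genes were chosen with earlier results of these data known. The factors were followed in 12 RNA-seq libraries from a pair of established lines, QGP-1 and BON-1, that derive from human neuroendocrine tumors of the pancreas (pNETs). Both lines carry tet-MUC1shRNA, a short hairpin RNA against MUC1 that doxycycline (DOX) switches on, from a lentiviral vector with puromycin selection. In each line 3 libraries came from cells given vehicle (DMSO) and 3 from cells given 500 ng/mL DOX, for 7 days by the study's methods. All 4 groups carry the hairpin construct, and none carries a control hairpin. Effects of DOX itself, off-target effects of the hairpin and effects of MUC1 silencing therefore cannot be told apart here. QGP-1 cells were grown in RPMI medium and BON-1 cells in DMEM/F-12, so line and medium cannot be told apart either. CHGA, SYP and INSM1, markers of neuroendocrine cells, were counted in each library, at 137 to 183, 37.6 to 45.6 and 91.0 to 117 CPM (counts scaled to a library of 1000000) in QGP-1 and at 2677 to 9224, 24.0 to 37.9 and 590.04 to 694 in BON-1. CHGA, which encodes chromogranin A of secretory granules, fell with DOX in BON-1, from 9224, 6811 and 8578 CPM to 2898, 3088 and 2677 (log2 fold change -1.46 ± 0.11, edgeR adjusted p = 2.45e-11), and so did SYP (-0.34 ± 0.11, edgeR adjusted p = 0.0192). INSM1 in BON-1 (-0.05 ± 0.08, edgeR adjusted p = 0.669) and all 3 markers in QGP-1 (0.15 ± 0.08, 0.18 ± 0.08 and 0.13 ± 0.09 for CHGA, SYP and INSM1, edgeR adjusted p = 0.158, 0.0972 and 0.285) did not pass. The part of the marker changes in the results was not tested.

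The hairpin target was checked first. MUC1, the transmembrane mucin, stood at 7.19, 5.81 and 5.65 CPM in the QGP-1 vehicle libraries and at 0.705, 1.04 and 0.744 with DOX. In BON-1 cells it stood at 20.6, 20.7 and 15.6 with vehicle and at 1.48, 2.65 and 3.97 with DOX. MUC1 fell in both lines, by 2.91 ± 0.23 on the log2 scale in QGP-1 (SE, n = 3 per group, edgeR adjusted p = 8.24e-07) and by 2.79 ± 0.22 in BON-1 (edgeR adjusted p = 6.51e-11). MYC, a transcription factor known to drive genes of ribosomes and translation, was higher with DOX by 0.24 ± 0.09 in QGP-1 (edgeR adjusted p = 0.0446) and by 0.30 ± 0.09 in BON-1 (edgeR adjusted p = 0.00657). With 1 library left out the MYC call passed in 1 of 6 fits in QGP-1, the one without DOX library 3 (edgeR adjusted p = 0.0156, and 0.054 to 0.158 in the others). In BON-1 it passed in 4 of 6 and was lost without vehicle library 2 (edgeR adjusted p = 0.0578) or 3 (0.0574). The MYC libraries overlapped between groups in QGP-1 cells, where 118 to 141 CPM with DOX met 99.1 to 118 with vehicle, and did not overlap in BON-1 cells. The paper reports the opposite direction in both lines, with less MYC mRNA by qRT-PCR and less MYC protein after DOX. The reason for this difference was not tested.

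In initiation, eIF2 brings the first tRNA to the small ribosomal subunit as a ternary complex with GTP, eIF2B reloads eIF2 with GTP, and the eIF2 alpha kinases block that reloading. The eIF4F proteins bind the mRNA cap and unwind the leader, and eIF3 is the large scaffold that joins the small subunit to the mRNA. In elongation, eEF1A delivers each aminoacyl-tRNA, the eEF1B subunits recharge eEF1A with GTP, eEF2 moves the ribosome by a codon, and eIF5A, despite its name, helps the ribosome through difficult stretches and termination. Many of these mRNAs begin with a cytosine and a run of pyrimidines, the 5′ terminal oligopyrimidine (TOP) start, by which the mTORC1 pathway is known to set their translation. The quantity measured here was the mRNA level, and translation was not measured.

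With DOX, mRNAs of these factors were lower more often than higher. Of the 60 factors tested in QGP-1 cells 23 were lower (38.3%) and 7 higher (11.7%), whereas among all 15089 genes tested 17.7% were lower and 17.3% higher. BON-1 cells had 15 lower (24.6%) and 4 higher (6.56%) among 61 tested, against 18.3% lower and 17.0% higher among 14625 genes. The calls are those of edgeR's quasi-likelihood test with a Benjamini-Hochberg adjusted p below 0.05 over the genes tested, with no minimum fold. With libraries scaled by their size alone BON-1 had 25 lower factors, while 3149 of 14625 genes were lower and 2030 higher. TPM gave 12 lower in BON-1 when centred, 4 when centred without the filter on low values and 2 when not centred, and in QGP-1 21, 6 and 0 lower and 8, 33 and 49 higher. In these fits all genes gave 1780, 770 and 335 lower in BON-1 (of 11954, 19630 and 11954). In QGP-1 they gave 3049, 9527 and 89 lower and 1857, 6676 and 9149 higher (of 10561, 21382 and 10561). The median log2 fold change of the factors lay 0.16 below that of all genes in QGP-1 cells (a difference of -0.16) and 0.11 below it in BON-1 cells (-0.11), so that the shift of a typical factor was small. On log2(TPM + 1) with each library centred, this difference was -0.061 in QGP-1, and without the filter on low TPM it turned to 0.30. In that unfiltered QGP-1 fit 11 of the 23 lower factors turned to positive values, namely EEF1G, EIF2B1, EIF2S1, EIF2S3, EIF3D, EIF3E, EIF3F, EIF3H, EIF3L, EIF3M and EIF4E, while 0 of the 15 lower in BON-1 turned. Changes of single factors ran from -0.65 to 0.44 in QGP-1 and from -0.88 to 0.73 in BON-1. In bulk RNA, less of an mRNA per cell and a change in the mix of cells cannot be told apart.

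Leaving out each library in turn kept 16 of the 23 lower and 2 of the 7 higher calls in QGP-1 cells in each of the 6 fits, and 9 of the 15 lower and 3 of the 4 higher calls in BON-1 cells. The number of higher calls in QGP-1 cells fell to 3 without vehicle library 1 or 3 and to 4 without vehicle library 2, DOX library 1 or DOX library 3. The QGP-1 calls lost without vehicle library 1 were EEF1AKMT2, EEF1D, EEF2K, EIF1AD, EIF2B1, EIF3A, EIF3L and EIF5 (edgeR adjusted p = 0.0507 to 0.106). Without vehicle library 2 they were EEF1AKMT2, EEF1D, EEF2K, EIF1AD and EIF5 (0.0512 to 0.178), and without vehicle library 3 EEF1AKMT2, EIF1AD, EIF2S1, EIF3A, EIF3E and EIF4ENIF1 (0.05003 to 0.0903). Leaving out DOX library 1 lost EEF1D, EIF1AD, EIF2B1, EIF4ENIF1 and EIF5 (0.0523 to 0.113), DOX library 2 EEF1AKMT2, EIF2B1, EIF2S1, EIF3A, EIF3E and EIF3L (0.0559 to 0.106), and DOX library 3 EEF1AKMT2, EEF1D, EIF1AD, EIF2S1, EIF3E, EIF3H, EIF3L and EIF5 (0.0528 to 0.0966). In BON-1 vehicle library 1 decided EIF3B, EIF3D, EIF3G, EIF3J, EIF4A2 and EIF4G1 (0.0622 to 0.168), vehicle library 2 EEF1AKMT3 and EIF4G1 (0.0676 to 0.0798), and vehicle library 3 EIF3J and EIF4A2 (0.0554 to 0.0568). DOX library 1 decided EEF1AKMT3, EIF3D, EIF3J, EIF4A2 and EIF4G1 (0.0698 to 0.231), DOX library 2 EEF1AKMT3 (0.0666), and DOX library 3 EIF3B, EIF3G and EIF4G1 (0.0583 to 0.111).

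Together the 65 genes took 1.61% to 1.65% of all counts in the QGP-1 vehicle libraries and 1.37% to 1.38% in the DOX libraries. In BON-1 cells they took 1.67% to 1.68% with vehicle and 1.46% to 1.49% with DOX. The groups did not overlap in either line. EEF1A1 made up 28.0% of the factor counts in QGP-1 vehicle libraries and 22.9% in BON-1. Without it the summed share was 1.17% ± 0.03 with vehicle and 1.06% ± 0.02 with DOX in QGP-1 (SD, n = 3), and 1.29% ± 0.01 and 1.18% ± 0.01 in BON-1. Beside these shares, 3 abundant small RNAs (RN7SK, RN7SL1 and RN7SL2) took 5.37% to 6.38% of the counts with vehicle and 3.30% to 4.53% with DOX in QGP-1 cells, and 1.35% to 2.39% and 1.55% to 3.77% in BON-1 cells, and their part in the result was not tested.

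**Figure D1:**
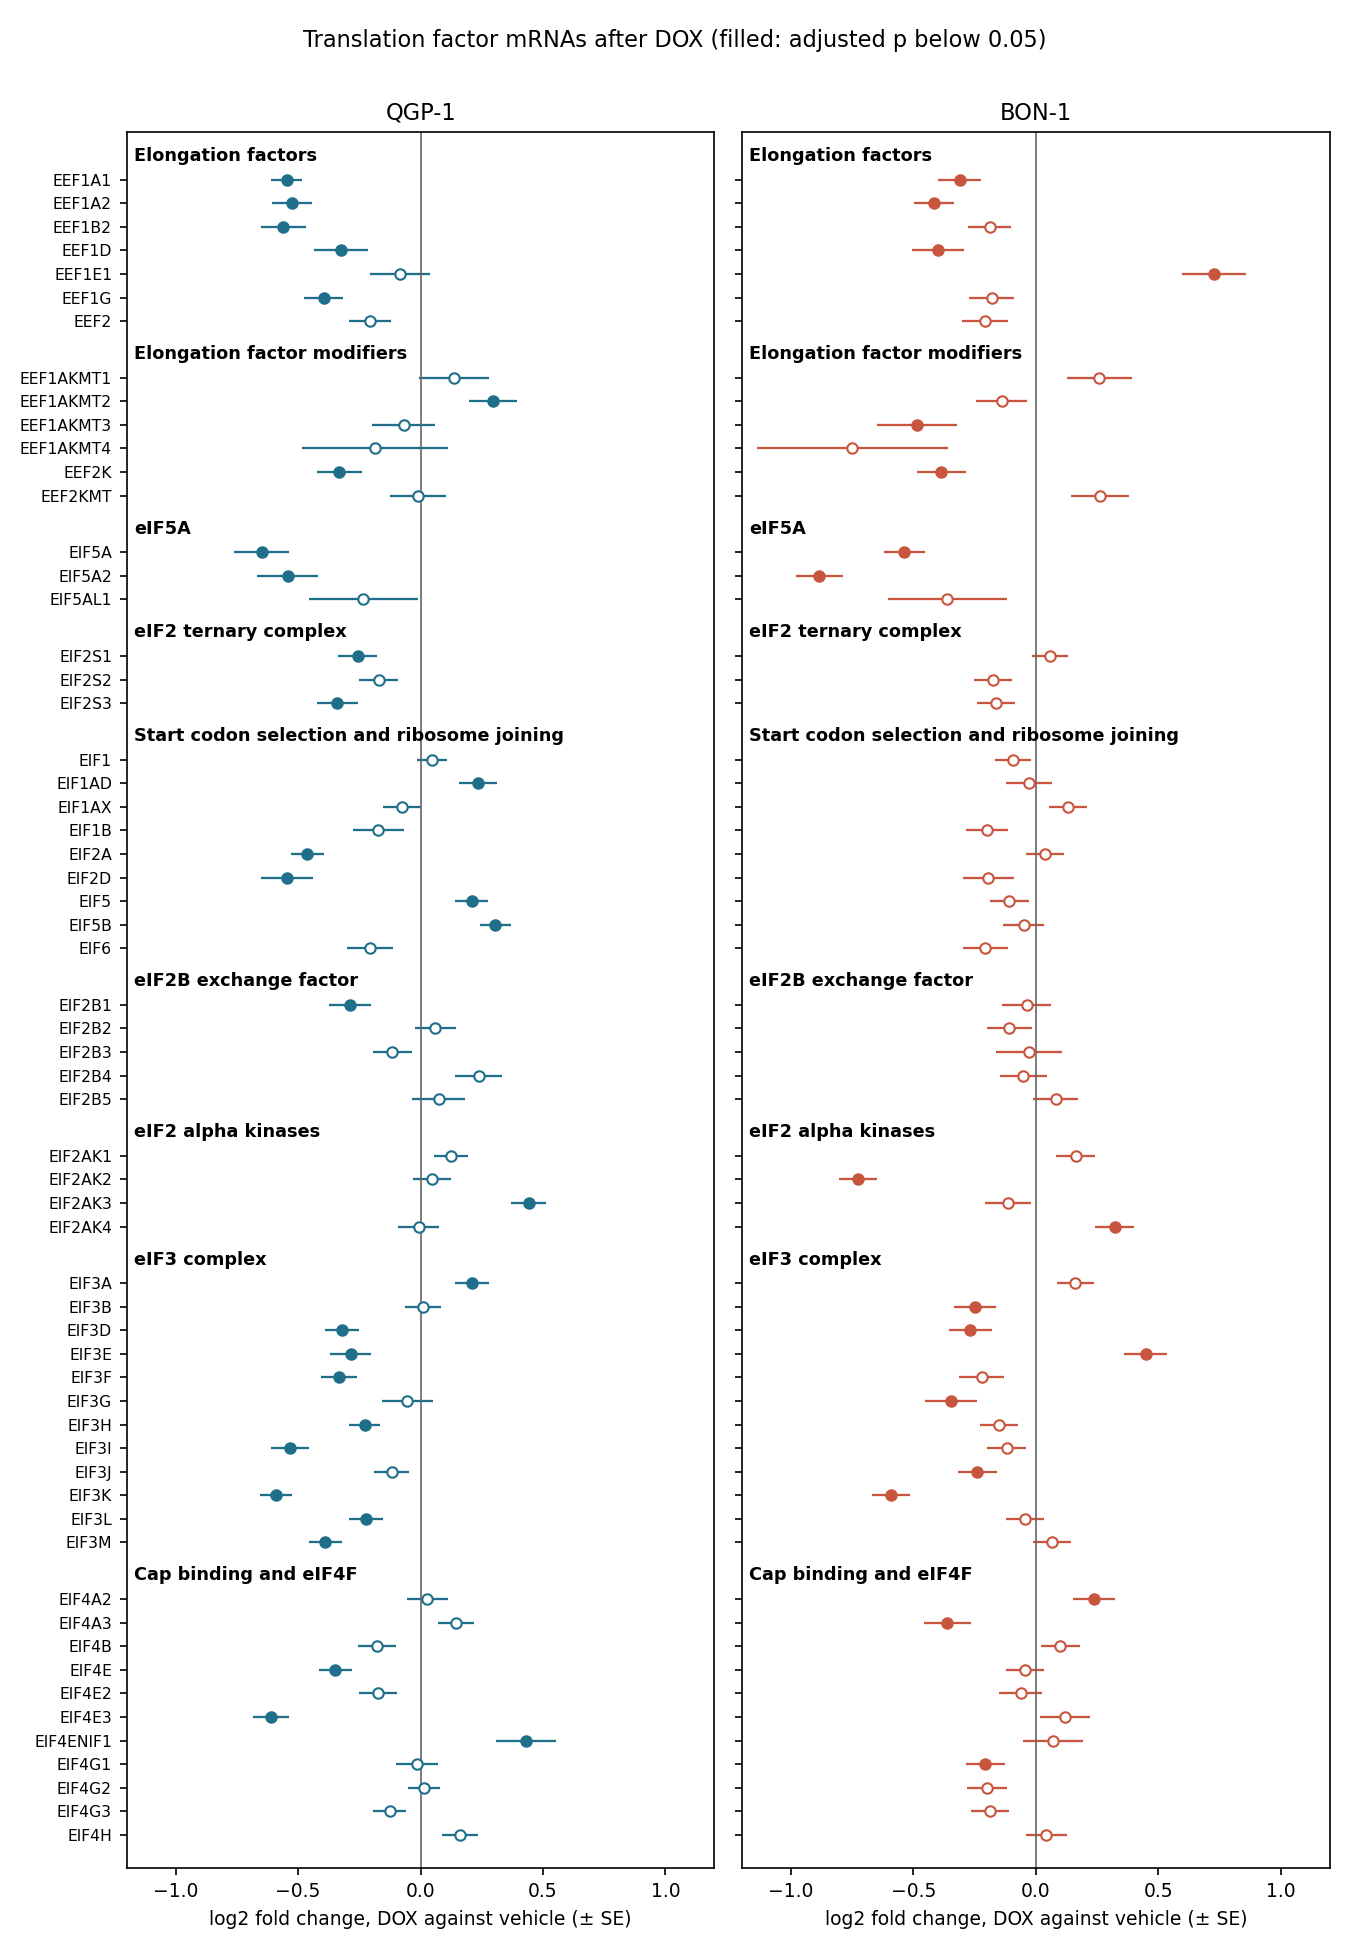
Log2 fold change of DOX against vehicle (x axis, points with SE, n = 3 libraries per group) for the 60 factors tested in both lines, by role, in QGP-1 (left) and BON-1 (right); filled points passed an edgeR adjusted p of 0.05. Most filled points lie left of 0 in both lines, with 23 lower and 7 higher in QGP-1 and 15 lower and 4 higher in BON-1.

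Elongation factors were mostly lower in QGP-1 cells. The role holds 7 genes grouped by name, among them EEF1E1, whose product is known for another role (below). All 7 had negative log2 fold changes in QGP-1 cells, and 5 of them were lower (71.4%, beside 17.7% of all genes). The median over the 7 was -0.40, beside -0.012 over all genes. On centred TPM without the filter EEF1G, of these 5, turned to a positive value, as did EEF2 and EEF1E1, which were not called. In BON-1 cells 3 of the 7 were lower (42.9%, beside 18.3%) and 1, EEF1E1, was higher (14.3%, beside 17.0%), with a median of -0.21. EEF1A1 encodes the widely expressed form of eEF1A. It stood at 4536, 4386 and 4793 CPM in QGP-1 vehicle libraries and at 3129, 3054 and 3204 with DOX. In BON-1 cells the values were 3720.1, 3716 and 3855 with vehicle and 3249, 2946 and 2902 with DOX. The DOX libraries lay below each vehicle library in both lines, a fall of 31.6% in QGP-1 (log2 fold change -0.55 ± 0.06, edgeR adjusted p = 2.26e-05) and of 19.4% in BON-1 (-0.31 ± 0.09, edgeR adjusted p = 0.00566). GENCODE lists 49 pseudogenes of EEF1A1, and 14.4% of its 50-base stretches also occur in other annotated genes, so its count is uncertain by an amount that was not measured. Among the called factors this share was higher for EEF1G (95.5%), EIF3L (36.0%), EEF1B2 (31.5%), EEF1E1 (18.4%), EIF2S3 (17.3%) and EIF5A (16.4%). Their counts carry the same doubt.

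EEF1A2, the eEF1A form known from neurons and muscle, moved with EEF1A1. It read 439.9, 414 and 359 CPM with vehicle and 303, 267 and 273 with DOX in QGP-1, and 471, 419 and 435 against 321, 369 and 303 in BON-1. None of the groups overlapped. The log2 fold change was -0.53 ± 0.08 in QGP-1 (edgeR adjusted p = 0.000244) and -0.42 ± 0.08 in BON-1 (edgeR adjusted p = 0.000211). Per length, EEF1A2 made up 14.3% ± 1.7 of the eEF1A transcripts (TPM of EEF1A1 and EEF1A2 together) with vehicle and 14.4% ± 0.8 with DOX in QGP-1 (SD, n = 3). In BON-1 the share was 18.0% ± 1.0 and 17.0% ± 1.8. The share moved by 0.15 percentage points in QGP-1 (exact permutation p = 0.9) and by -1.02 in BON-1 (exact permutation p = 0.4), neither of which passed. With 3 libraries a group this test cannot go below 0.1.

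Of the eEF1B subunits, which exchange GDP for GTP on eEF1A, EEF1B2, EEF1G and EEF1D were lower in QGP-1 and EEF1D was lower in BON-1. EEF1B2 read 220.1, 244 and 287 CPM with vehicle and 184, 162 and 163 with DOX there, a log2 fold change of -0.56 ± 0.09 (edgeR adjusted p = 0.000342). In BON-1 its libraries overlapped at 112 to 127 and 91.9 to 117, and the change of -0.19 ± 0.09 did not pass (edgeR adjusted p = 0.0907). The response differed between the lines at the very edge of the threshold (interaction 0.38 ± 0.13, edgeR adjusted p = 0.0499) and passed in 2 of 12 fits with 1 library left out. EEF1G was lower in QGP-1 at -0.40 with no called difference between the lines (edgeR adjusted p = 0.293), and 99.7% of its exon bases are shared on the same strand with an annotated readthrough gene, so reads of both cannot be separated in this annotation. EEF1D, another eEF1B subunit, was counted at only 22.8 to 48.6 CPM and was lower in both lines. Its log2 fold change was -0.33 ± 0.11 in QGP-1 (edgeR adjusted p = 0.0333), where the groups overlapped, and -0.40 ± 0.11 in BON-1 (edgeR adjusted p = 0.00387), where they did not. In QGP-1 it no longer passed without vehicle library 1 (edgeR adjusted p = 0.0781), vehicle library 2 (0.178), DOX library 1 (0.113) or DOX library 3 (0.0832).

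EEF2 is the translocase. Its QGP-1 libraries read 1842, 1743 and 1486 CPM with vehicle and 1350.1, 1616 and 1428 with DOX. In BON-1 they read 1484, 1309 and 1325 with vehicle and 1202, 1356 and 1007 with DOX. The groups overlapped in both lines, and the changes of -0.21 ± 0.09 did not pass (edgeR adjusted p = 0.0805 and 0.0877).

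EEF1E1 went the other way in BON-1. It carries an elongation factor name, but its product is known as a scaffold of the complex of aminoacyl-tRNA synthetases. In BON-1 it read 12.6, 15.2 and 16.7 CPM with vehicle and 25.5, 21.6 and 26.2 with DOX, a rise of 65.6% (log2 fold change 0.73 ± 0.13, edgeR adjusted p = 6.92e-05). The QGP-1 groups overlapped, at 12.3 to 15.2 with vehicle and 11.2 to 14.1 with DOX (-0.08 ± 0.12, edgeR adjusted p = 0.641). This difference of 0.82 ± 0.19 between the lines was the largest among the factors (edgeR adjusted p = 0.00352).

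Of the 6 enzymes that modify the elongation factors, 1 was lower and 1 higher in QGP-1 (median -0.04), shares of 16.7% near the 17.7% and 17.3% of all genes, and 2 were lower in BON-1 (33.3%, beside 18.3%, median -0.26). EEF2K, the kinase that halts eEF2, was lower in both lines. It read 49.6, 48.5 and 41.2 CPM with vehicle and 36.4, 38.9 and 35.3 with DOX in QGP-1, and 56.3, 50.2 and 47.6 against 34.5, 40.4 and 43.1 in BON-1. The groups were apart in both. Its log2 fold change was -0.33 ± 0.09 in QGP-1 (edgeR adjusted p = 0.0112) and -0.39 ± 0.10 in BON-1 (edgeR adjusted p = 0.00305). Without QGP-1 vehicle library 1 or 2 the QGP-1 value did not pass (edgeR adjusted p = 0.0567 and 0.0589). Among the lysine methyltransferases of eEF1A and eEF2, EEF1AKMT2 was higher in QGP-1 (0.30 ± 0.10, edgeR adjusted p = 0.0304) and read -0.14 ± 0.10 in BON-1, and EEF1AKMT3 was lower in BON-1 (-0.49 ± 0.17, edgeR adjusted p = 0.0226) and read -0.07 ± 0.13 in QGP-1. With 1 library left out the EEF1AKMT2 call passed in 1 of 6 fits, the one without DOX library 1 (edgeR adjusted p = 0.0377), and the EEF1AKMT3 call in 3 of 6. The other 3 did not pass in either line.

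Of the 3 eIF5A genes EIF5A and EIF5A2 were lower in both lines (66.7%, beside 17.7% of all genes in QGP-1 and 18.3% in BON-1), and the median log2 fold change over the 3 was -0.54 in each. EIF5A is the abundant form. It read 637, 634 and 675 CPM with vehicle and 516, 372 and 353 with DOX in QGP-1. The BON-1 values were 315, 279 and 258 with vehicle and 204, 209.6 and 174 with DOX. No DOX library reached a vehicle library in either line. The log2 fold change was -0.65 ± 0.11 in QGP-1, the most negative of all factors there (edgeR adjusted p = 0.000548), and -0.54 ± 0.09 in BON-1 (edgeR adjusted p = 1.42e-05).

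EIF5A2, the scarcer form and one linked to cancer, read 14.9, 16.1 and 20.3 CPM with vehicle and 11.2, 11.7 and 12.3 with DOX in QGP-1. In BON-1 it read 49.4, 52.1 and 49.8 with vehicle and 28.8, 25.0 and 28.3 with DOX. The BON-1 fall of 45.8% was the largest of any factor in that line (log2 fold change -0.88 ± 0.10, edgeR adjusted p = 4.3e-08), and in QGP-1 the fall was 31.3% (-0.54 ± 0.12, edgeR adjusted p = 0.004). The difference between the lines did not pass (-0.33 ± 0.16, edgeR adjusted p = 0.166). Of the TPM of both forms, EIF5A2 made up 4.95% ± 0.51 with vehicle and 3.94% ± 0.59 with DOX in BON-1 (SD, n = 3, exact permutation p = 0.2) and at most 1.01% in each QGP-1 library. EIF5AL1, a near copy of EIF5A, did not pass in either line. DHPS, which makes the first step of the hypusine change that eIF5A needs to work, also fell in both lines. It read 109, 105 and 112 CPM with vehicle and 76.7, 70.1 and 71.6 with DOX in QGP-1, and 57.6, 57.2 and 59.4 against 46.5, 44.7 and 41.7 in BON-1 (log2 fold change -0.58 ± 0.07 and -0.39 ± 0.09, edgeR adjusted p = 3.71e-05 and 0.000915). DOHH, which makes the next step, lay between 0.856 and 3.55 CPM in the 12 libraries and did not pass in either line.

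**Figure D2:**
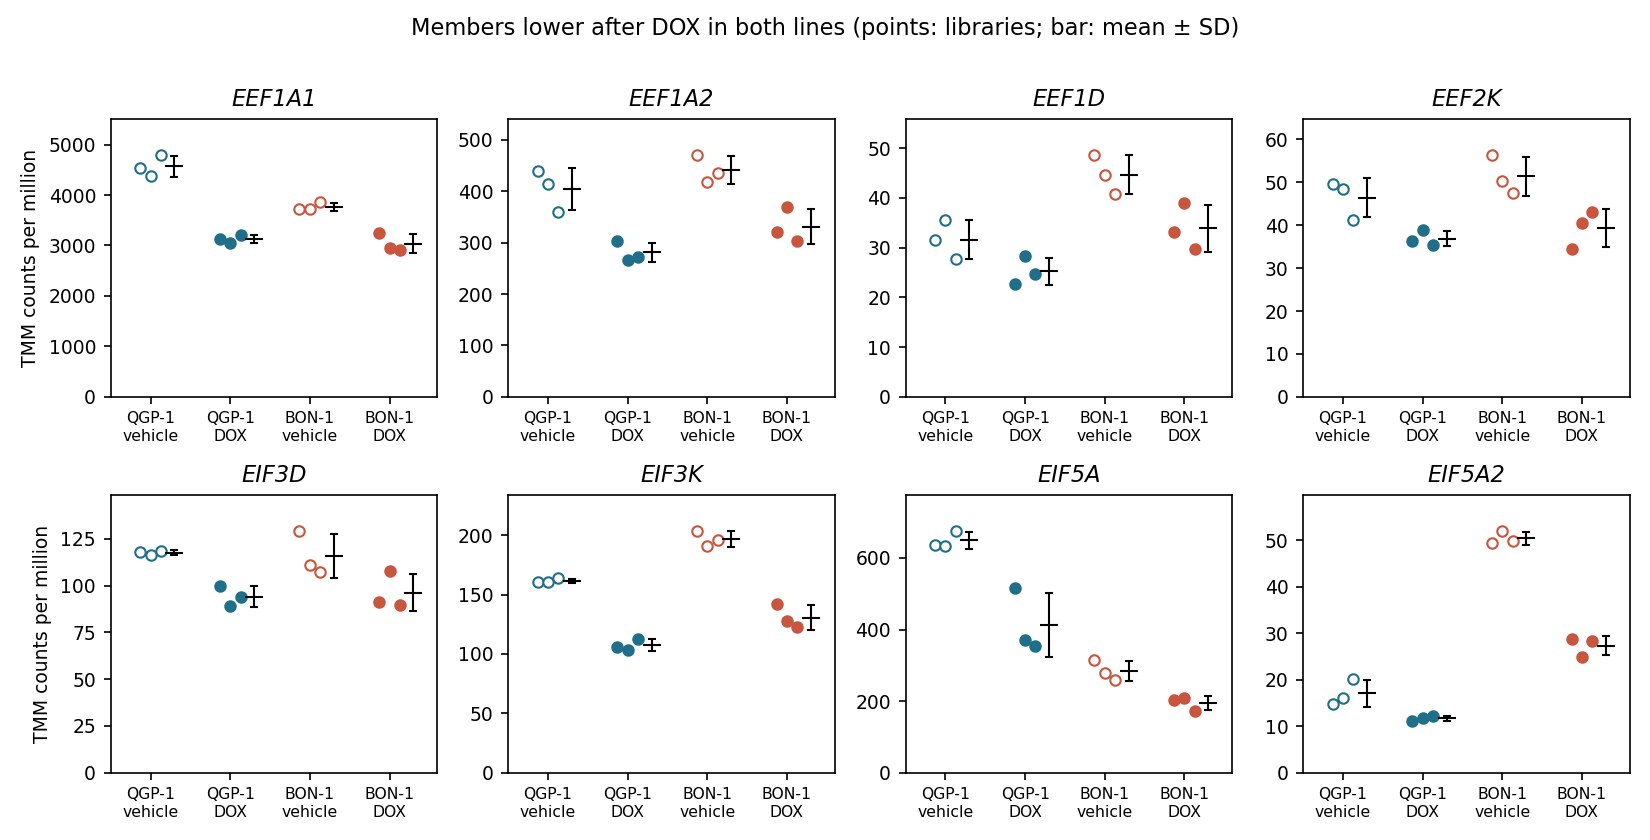
TMM CPM (y axis, from 0) of the 8 factors that were lower with DOX in both lines, for 3 vehicle (open) and 3 DOX (filled) libraries of QGP-1 (blue) and BON-1 (red); black bars are mean ± SD, and levels were scaled within each line. EIF3K fell by 33.6% in both lines, and EEF1D in QGP-1 and EIF3D in BON-1 show overlapping groups.

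These 8 factors, EEF1A1, EEF1A2, EEF1D, EEF2K, EIF3D, EIF3K, EIF5A and EIF5A2, were lower in both lines, and 0 of the 60 factors tested in both were higher in both (931 of all 13535 genes tested in both, 6.88%, were). They are 34.8% of the lower calls in QGP-1 and 53.3% of those in BON-1. Over all 13535 genes tested in both lines, 39.5% of the QGP-1 lower calls were also lower in BON-1 and 39.5% the other way, and 978 of them (7.23%) were lower in both, beside 8 of 60 factors. For 4 of the 8 the log2 fold changes of the lines differed by under 0.1. None of the 8 had a called difference in response. Both statements follow in part from choosing the 8 by lower calls in both lines, so they do not test whether the lines respond alike. The same counts were not taken for the 978 genes. With 1 library left out at a time, 6 to 8 of the 8 stayed lower in both lines, and the lost ones were EEF1D, EEF2K and EIF3D. With libraries scaled by their size alone 11 factors were lower in both, without EEF1D, and with no count filter 12, all 8 among them. Centred TPM without the filter kept EIF3K, EIF5A and EIF5A2 of the 8, and TPM that was not centred kept 0. In QGP-1 a further 14 were lower and not called in BON-1, in BON-1 a further 7 were lower and not called in QGP-1, and 20 were called in neither. The shares of all genes with these patterns were not computed, so these counts are not read as a result about the factors.

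Start sequences are shown because they set a group of factors apart by letters that the choice of genes did not use. RefSeq windows around the annotated start (GRCh38.p14, 250 bases before to 50 after) matched 52 of the 65 genes. Called factors without a window enter neither side of the splits below. In QGP-1 these were EEF1A2, EEF1D, EIF3E, EIF3H and EIF3L, all lower, and EIF3A, which was higher. In BON-1 they were EEF1A2, EEF1AKMT3, EEF1D and EIF3G, all lower, and EIF3E, which was higher. A TOP start was taken as a C at the annotated first base followed by at least 4 bases that are C or T, read on the strand of the gene. It was found in 12 of the 52 (23.1%) and in 5.14% of all 27305 genes with a window. Among genes tested with a window, the shares were 25.0% of the factors and 7.07% of all in QGP-1, and 24.5% and 7.19% in BON-1. The first 20 bases of the 12, on the strand of the gene and with the pyrimidine run in capitals, followed by EIF3I and EEF1G, which fell in QGP-1 without such a run, read as follows.
EEF1A1 (chr6:73521013-73521032, minus strand): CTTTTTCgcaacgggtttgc
EEF1B2 (chr2:206159895-206159914, plus strand): CCTTTTTCCTCTCTTCagcg
EEF2 (chr19:3985444-3985463, minus strand): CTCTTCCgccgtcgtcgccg
EIF2A (chr3:150546787-150546806, plus strand): CTCTTTCCgggacaacatgg
EIF2D (chr1:206612446-206612465, minus strand): CCTTTTCgcggccgggcccc
EIF2S3 (chrX:24054956-24054975, plus strand): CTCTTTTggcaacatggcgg
EIF3D (chr22:36529147-36529166, minus strand): CTCTTTTCCTggtttctcaa
EIF3F (chr11:7987337-7987356, plus strand): CTTCTTTCTCgacaagatgg
EIF3K (chr19:38619188-38619207, plus strand): CTCTTCCTgttcccgtcctt
EIF3M (chr11:32583831-32583850, plus strand): CTTTTCCggtcggcgtggtc
EIF4A2 (chr3:186783577-186783596, plus strand): CTTTTCagtcgggcgctgag
EIF4B (chr12:53006456-53006475, plus strand): CTTTTgcgttctctttccct
EIF3I (chr1:32222407-32222426, plus strand): actcacgttgcggccttcct
EEF1G (chr11:62573872-62573891, minus strand): actttgcggcagcgccgaga

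Of the 12 factors with a TOP start, QGP-1 cells had 9 lower (75.0%) and 0 higher, and EEF2, EIF4B and EIF4A2 did not pass. Of the 9, EIF2S3, EIF3D, EIF3F and EIF3M turned to positive values on centred TPM without the filter, as did EEF2 and EIF4B. Of the 36 tested factors with a window and no such start, 9 were lower (25.0%) and 6 higher (16.7%). The median log2 fold change was -0.36 in the first set and -0.08 in the second. Genes outside the factors showed the same order. Of 768 TOP-start genes 26.0% were lower and 15.2% higher in QGP-1, and of 10213 others 17.3% and 18.9%. In BON-1 cells 3 of the 12 were lower (25.0%), namely EEF1A1, EIF3D and EIF3K, and 1, EIF4A2, was higher (8.33%), against 8 lower (21.6%) and 2 higher (5.41%) of 37 without the start. The medians there were -0.19 and -0.11. Genes outside the factors gave 24.6% of 757 and 18.5% of 9882 lower in BON-1, and 13.7% and 17.6% higher. These shares are descriptions of 12 genes, and an annotated start is not a start measured in these cells.

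**Figure D3:**
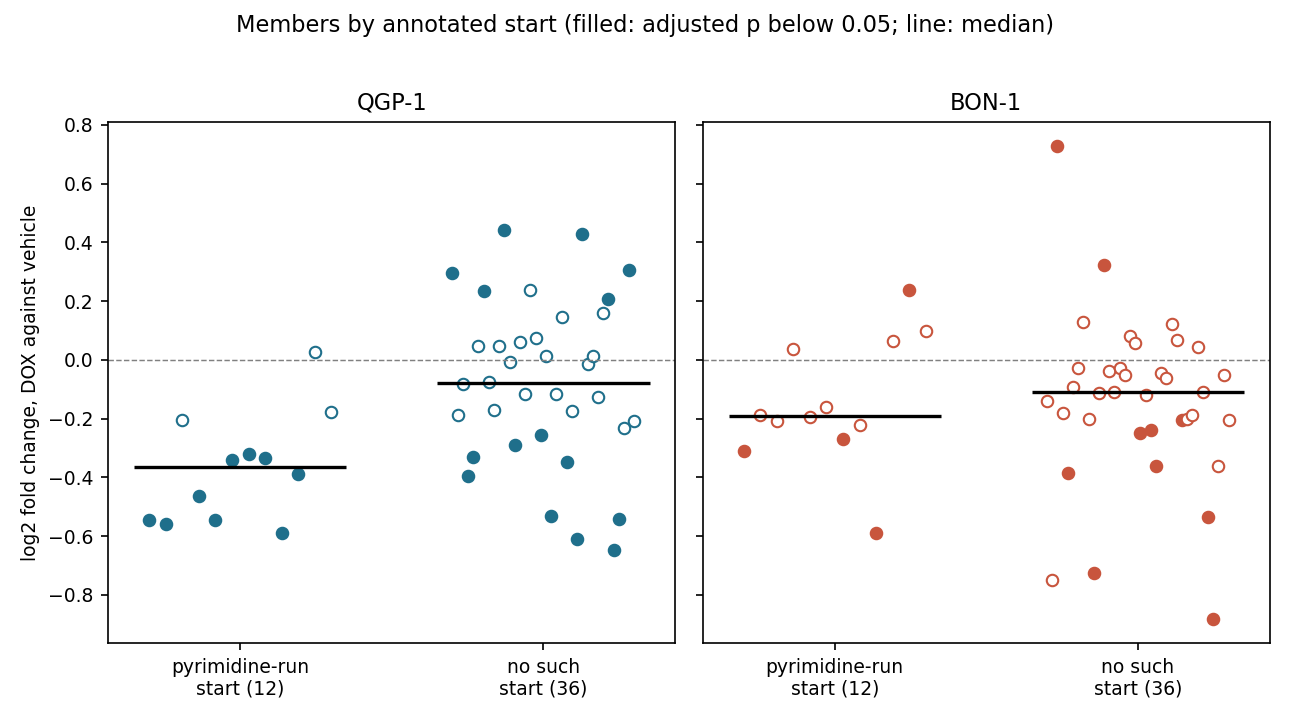
Log2 fold change of DOX against vehicle (y axis) of the factors with a RefSeq start window, split by whether the annotated start is a pyrimidine run, in QGP-1 (left) and BON-1 (right); filled points passed an edgeR adjusted p of 0.05 and black lines are medians. In QGP-1 the 12 factors with such a start have a median of -0.36 and 9 filled points below 0 (4 of these turned positive on centred TPM without the filter), and in BON-1 both sets center near -0.19 and -0.11.

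The E-box CACGTG, the site that MYC with MAX is known to bind, was searched on both strands (it reads the same on each) in the whole window. It was present in 13 of the 52 factors (25.0%) and in 8.77% of all genes with a window. Among tested genes it was in 27.1% of the factors and 12.3% of all in QGP-1, and in 26.5% and 12.4% in BON-1. Of the 13, 5 were lower in QGP-1 (38.5%) and 6 in BON-1 (46.2%), and 0 were higher in either line. Among genes outside the factors with an E-box 17.4% were higher in QGP-1 and 16.6% in BON-1. Of the tested factors without it, 13 of 35 (37.1%) and 5 of 36 (13.9%) were lower, and 6 (17.1%) and 3 (8.33%) were higher. Among genes outside the factors an E-box went with no larger share of lower calls, 16.2% with and 18.1% without in QGP-1 and 17.5% and 19.2% in BON-1. The stretches around the E-boxes (capitals) of 3 factors lower in both lines and of EIF4E are shown, all upstream of the annotated start and on the strand of the gene.
EIF5A2 (chr3:170908782-170908836, minus strand): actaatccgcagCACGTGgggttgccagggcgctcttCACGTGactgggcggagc
EIF3K (chr19:38619073-38619102, plus strand): cgaggaagaagtCACGTGgcagccggaaag
EEF2K (chr16:22206207-22206236, plus strand): cctgggggcggcCACGTGagcgccacgccg
EIF4E (chr4:98929341-98929370, minus strand): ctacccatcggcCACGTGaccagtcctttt
The core of the ATF4 element, TGATGNAA on either strand, was present in 1 of the 52 (1.92%) and in 4.46% of all genes with a window, and among tested genes in 2.08% of the factors and 2.86% of all in QGP-1 and in 2.04% and 2.81% in BON-1. A match is a string of letters, not a bound site.

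Of the eIF2 subunits, which form the ternary complex, 2 of 3 were lower in QGP-1 (66.7%, beside 17.7% of all genes) and 0 of 3 passed in BON-1 (18.3% of all genes were lower). EIF2S1 encodes the alpha subunit, the target of the stress kinases. It read 121, 119.9 and 143 CPM with vehicle and 113, 103 and 106 with DOX in QGP-1 (log2 fold change -0.26 ± 0.08, edgeR adjusted p = 0.0226, and 0.13 on centred TPM without the filter), and 207, 190.0 and 200.03 against 216, 197 and 208 in BON-1 (0.06 ± 0.07, edgeR adjusted p = 0.586). The groups were apart in QGP-1 and overlapped in BON-1, and the responses differed (0.32 ± 0.11, edgeR adjusted p = 0.0443), a call that passed in 2 of 12 fits with 1 library left out. EIF2S3 was lower at -0.34 in QGP-1, and EIF2S2 read -0.17 in both lines without passing. Both turned to positive values in QGP-1 on centred TPM without the filter. Of the 5 subunits of eIF2B only EIF2B1 passed, lower in QGP-1 at -0.29, a share near that of all genes. EIF2B1 turned to a positive value in that TPM fit. EIF2B5, the catalytic subunit, read 0.07 ± 0.11 in QGP-1 and 0.08 ± 0.09 in BON-1 (edgeR adjusted p = 0.639 and 0.53).

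Of the 4 eIF2 alpha kinases 1 was higher in QGP-1 (17.3% of all genes were), and in BON-1 1 was higher and 1 lower (17.0% and 18.3% of all genes were). EIF2AK3 encodes PERK, the kinase of the endoplasmic reticulum. It read 55.8, 53.0 and 58.5 CPM with vehicle and 75.2, 76.5 and 75.5 with DOX in QGP-1, a rise of 35.8% (log2 fold change 0.44 ± 0.07, edgeR adjusted p = 0.0004). BON-1 libraries read 43.8, 41.2 and 44.1 against 43.2, 36.9 and 39.4, which overlapped (-0.11 ± 0.09, edgeR adjusted p = 0.374). The difference in response was -0.55 ± 0.12 (edgeR adjusted p = 0.00209).

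EIF2AK2 encodes PKR, the kinase that senses double-stranded RNA and is itself induced by interferon. In BON-1 it read 192, 206 and 211 CPM with vehicle and 115, 129 and 124 with DOX, a fall of 39.6% (log2 fold change -0.73 ± 0.08, edgeR adjusted p = 2.12e-08). The QGP-1 libraries overlapped at 86.6, 93.7 and 95.97 with vehicle and 103, 90.0 and 92.1 with DOX (0.05 ± 0.08, edgeR adjusted p = 0.67). Among the factors this difference had the smallest adjusted p (-0.76 ± 0.11, edgeR adjusted p = 2.96e-05). EIF2AK4 encodes GCN2, the sensor of uncharged tRNA, and rose in BON-1 from 78.8, 88.5 and 85.0 to 106, 107 and 102 (0.32 ± 0.08, edgeR adjusted p = 0.00211), while in QGP-1 it read -0.01 ± 0.08. EIF2AK1, the heme-regulated kinase, passed in neither line. PPP1R15A and PPP1R15B, the partners that direct a phosphatase to eIF2 alpha, were higher in both lines. PPP1R15A read 14.5, 12.98 and 12.96 CPM with vehicle and 20.2, 18.6 and 18.4 with DOX in QGP-1, and 24.7, 23.1 and 23.6 against 34.9, 36.6 and 26.5 in BON-1 (0.51 ± 0.10 and 0.45 ± 0.12, edgeR adjusted p = 0.0017 and 0.00303). PPP1R15B rose by 0.24 ± 0.07 in QGP-1 and by 0.20 ± 0.07 in BON-1 (edgeR adjusted p = 0.0134 and 0.0336). The PPP1R15B call in BON-1 passed in 1 of 6 fits with 1 library left out, the one without vehicle library 1 (edgeR adjusted p = 0.0205, and 0.0639 to 0.151 in the others), and in QGP-1 it was lost without vehicle library 2 (edgeR adjusted p = 0.0767).

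**Figure D4:**
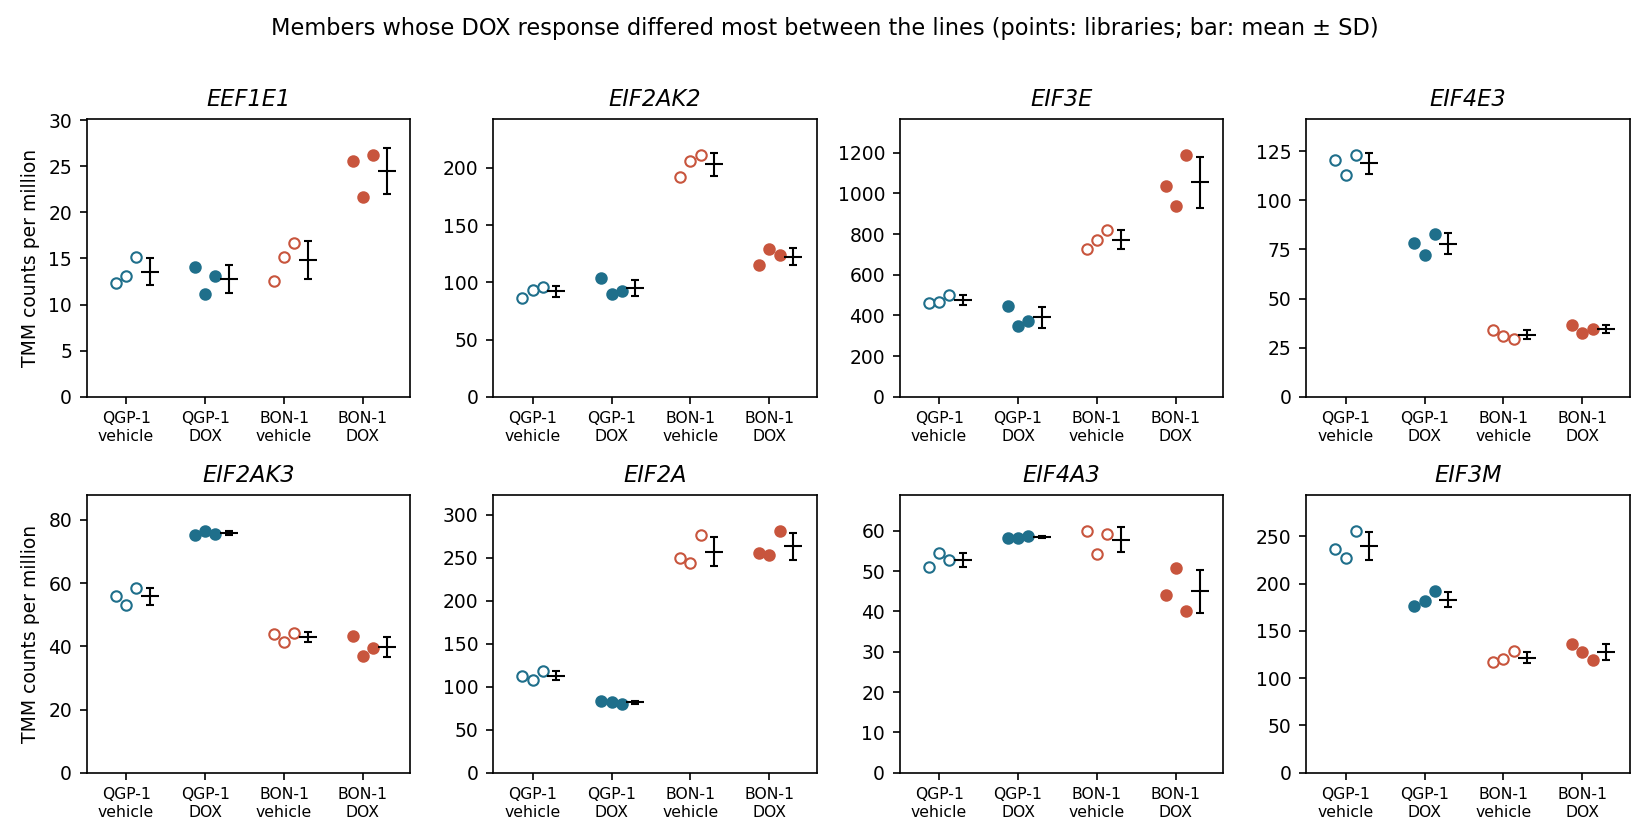
TMM CPM (y axis, from 0) of the 8 factors with the largest called difference in DOX response between the lines, for 3 vehicle (open) and 3 DOX (filled) libraries of QGP-1 (blue) and BON-1 (red); black bars are mean ± SD, and levels were scaled within each line. EEF1E1 and EIF3E are higher and EIF2AK2 lower with DOX in BON-1, and EIF4E3, EIF2A and EIF3M are lower and EIF2AK3 higher with DOX in QGP-1.

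Of the genes of start codon selection and ribosome joining, 2 of 9 tested were lower (22.2%, near the 17.7% of all genes) and 3 higher (33.3%, beside 17.3%) in QGP-1, and 0 of 10 passed in BON-1 in either direction (18.3% of all genes were lower and 17.0% higher). EIF2A, an alternative carrier of initiator tRNA, read 112, 108 and 118 CPM with vehicle and 83.5, 82.1 and 80.0 with DOX in QGP-1 (log2 fold change -0.46 ± 0.07, edgeR adjusted p = 0.000181). The BON-1 libraries overlapped at 249.8, 244 and 276 with vehicle and 256, 253 and 281 with DOX (0.04 ± 0.08, edgeR adjusted p = 0.748), and the responses differed by 0.51 ± 0.10 (edgeR adjusted p = 0.00128). EIF2D was lower in QGP-1 at -0.55. EIF5B, the GTPase that joins the ribosomal subunits, read 139.5, 137 and 135 with vehicle and 172, 170.0 and 166 with DOX in QGP-1 (0.30 ± 0.06, edgeR adjusted p = 0.00185) and -0.05 ± 0.08 in BON-1. EIF5, which makes eIF2 hydrolyze its GTP, was higher in QGP-1 (0.21 ± 0.07, edgeR adjusted p = 0.0265), and so was EIF1AD (0.23 ± 0.08, edgeR adjusted p = 0.0308). With 1 library left out the EIF5 call passed in 2 of 6 fits and the EIF1AD call in 1 of 6. EIF1, the gatekeeper of start codons, read 0.05 ± 0.06 in QGP-1 and -0.09 ± 0.07 in BON-1, and its paralog EIF1B read -0.17 ± 0.10 and -0.20 ± 0.09, none of which passed. EIF1B made up 9.75% ± 0.30 of the TPM of both with vehicle and 8.48% ± 0.99 with DOX in QGP-1 (SD, n = 3, exact permutation p = 0.1, the smallest possible, and 0.4 after adjustment over 12 paralog comparisons).

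The eIF3 complex, the role with the most tested genes, gave the largest number of calls. By share called it did not lead in BON-1, at 50% beside 57.1% of elongation factors (EEF1E1 counted among them) and 66.7% of eIF5A genes. Of the 12 tested eIF3 subunits 8 were lower (66.7%, beside 17.7% of all genes) and 1, EIF3A, higher (8.33%, beside 17.3%) in QGP-1. On centred TPM without the filter 6 of these 8, EIF3D, EIF3E, EIF3F, EIF3H, EIF3L and EIF3M, turned to positive values. In BON-1 5 were lower (41.7%, beside 18.3%) and 1, EIF3E, higher (8.33%, beside 17.0%). EIF3K, a peripheral subunit, had nearly the same fall in both lines. It read 161, 160.4 and 164 CPM with vehicle and 106, 104 and 113 with DOX in QGP-1, and 204, 191 and 196 against 142, 127 and 122 in BON-1. The groups were far apart, with log2 fold changes of -0.59 ± 0.07 (edgeR adjusted p = 1.77e-05) and -0.59 ± 0.08 (edgeR adjusted p = 8.53e-07). EIF3D, the subunit that can bind the cap of selected mRNAs, read 118, 116 and 118 with vehicle and 99.7, 88.8 and 93.8 with DOX in QGP-1 (-0.32 ± 0.07, edgeR adjusted p = 0.00263, and 0.076 on centred TPM without the filter). In BON-1 it read 129, 111 and 107 against 91.1, 108 and 89.7, which overlapped (-0.27 ± 0.09, edgeR adjusted p = 0.018). That BON-1 call was lost without vehicle library 1 (edgeR adjusted p = 0.132) or DOX library 1 (0.0698). EIF3D stands in a list that the study chose on these libraries, so its fall is not independent evidence for that list.

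EIF3E was the only factor that edgeR called in opposite directions in the lines. It read 459, 465 and 503 CPM with vehicle and 447, 349.9 and 373 with DOX in QGP-1 (log2 fold change -0.29 ± 0.09, edgeR adjusted p = 0.0178). In BON-1 it read 729, 769 and 821 with vehicle and 1036, 939 and 1189 with DOX (0.45 ± 0.09, edgeR adjusted p = 0.000199). The difference of 0.75 ± 0.13 passed (edgeR adjusted p = 0.00032) and did so with any one library left out, while the QGP-1 fall alone was lost without vehicle library 3 (edgeR adjusted p = 0.0554), DOX library 2 (0.0912) or DOX library 3 (0.0583). On log2(TPM + 1) the QGP-1 value of EIF3E was -0.21 when centred (limma adjusted p = 0.0728), and it turned to 0.12 when centred without the filter and to 0.44 when not centred, where the median of all genes moved by 0.59. EIF3I and EIF3M fell in QGP-1, EIF3I from 243, 260.5 and 274 to 199, 169 and 169 (-0.53 ± 0.08, edgeR adjusted p = 0.000164) and EIF3M from 237, 227 and 256 to 176, 181 and 192 (-0.39 ± 0.07, edgeR adjusted p = 0.000673, and 0.020 for EIF3M on centred TPM without the filter). In BON-1 they read -0.12 ± 0.08 and 0.06 ± 0.08, and both responses differed between the lines (0.42 ± 0.11 and 0.46 ± 0.10, edgeR adjusted p = 0.0119 and 0.00292). EIF3F, EIF3H and EIF3L were also lower in QGP-1, at -0.33, -0.23 and -0.22, and EIF3B, EIF3G and EIF3J in BON-1, at -0.25, -0.35 and -0.24. EIF3C was counted 0 to 6 times per library and EIF3CL listed at 0. These genes are near copies (97.1% of the 50-base stretches of EIF3CL occur in other annotated genes, most often in EIF3C), and since eIF3C is a core subunit that cells need, no level is read from these rows.

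Among the cap-binding and eIF4F genes, 2 of the 11 tested were lower and 1 higher in each line, a share of lower calls near the 17.7% and 18.3% of all genes, and a share of higher calls of 9.09% beside 17.3% in QGP-1 and 17.0% in BON-1. EIF4E, the cap-binding protein, read 164, 167 and 181 CPM with vehicle and 132, 132 and 138 with DOX in QGP-1 (log2 fold change -0.35 ± 0.07, edgeR adjusted p = 0.00118, and 0.0095 on centred TPM without the filter). In BON-1 it overlapped at 186, 181 and 187 with vehicle and 181, 164 and 192 with DOX (-0.04 ± 0.08, edgeR adjusted p = 0.698), and the responses differed (0.31 ± 0.10, edgeR adjusted p = 0.0389), a call that passed in 3 of 12 fits with 1 library left out.

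EIF4E3, a paralog with an unusual way of holding the cap, gave one of the larger line differences. It read 121, 113 and 123 with vehicle and 78.1, 72.4 and 83.1 with DOX in QGP-1, a fall of 34.5% (-0.61 ± 0.07, edgeR adjusted p = 3.75e-05), and 34.1, 31.0 and 29.6 against 36.5, 32.3 and 34.5 in BON-1 (0.12 ± 0.10, edgeR adjusted p = 0.382). The difference was 0.74 ± 0.12 (edgeR adjusted p = 0.000159). Per length, EIF4E3 made up 56.1% ± 1.2 of the TPM of EIF4E and EIF4E3 with vehicle and 51.5% ± 1.3 with DOX in QGP-1 (SD, n = 3). The difference of -4.57 percentage points left the groups apart (exact permutation p = 0.1, the smallest possible, adjusted p = 0.4). In BON-1 the share was 23.9% ± 1.4 and 26.1% ± 1.2. EIF4E2, a cap-binding repressor, read -0.17 ± 0.08 and -0.06 ± 0.09 and passed in neither line. Its share of the TPM of EIF4E and EIF4E2 was 47.6% ± 0.74 with vehicle and 50.6% ± 0.85 with DOX in QGP-1 (SD, n = 3), with the groups apart (exact permutation p = 0.1, the smallest possible, adjusted p = 0.4), and 48.1% ± 1.2 and 47.8% ± 2.5 in BON-1, where they overlapped.

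EIF4G1, the scaffold of eIF4F, read -0.01 ± 0.08 in QGP-1 and was lower in BON-1 (-0.21 ± 0.08, edgeR adjusted p = 0.0466), where its groups overlapped, while EIF4G3 passed in neither. Of the helicases, EIF4A2 was higher in BON-1, from 456, 548 and 542 to 672, 579 and 573 (0.24 ± 0.09, edgeR adjusted p = 0.0315), and EIF4A3, which marks exon junctions rather than acting in eIF4F, was lower there, from 60.0, 54.2 and 59.3 to 43.96, 50.8 and 40.2 (-0.36 ± 0.10, edgeR adjusted p = 0.0038). In QGP-1 EIF4A3 read 0.14 ± 0.07, and the responses differed (-0.50 ± 0.12, edgeR adjusted p = 0.00735). EIF4ENIF1, which carries eIF4E into the nucleus, was higher in QGP-1 (0.43 ± 0.12, edgeR adjusted p = 0.0146). EIF4A1, the main eIF4A gene, was listed at 0 in all 12 libraries. In the GENCODE annotation 47.4% of its exon bases lie on the same strand within other genes, and as a gene that cells need it cannot be read as absent from this row, so its share against EIF4A2 was not computed.

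**Figure D5:**
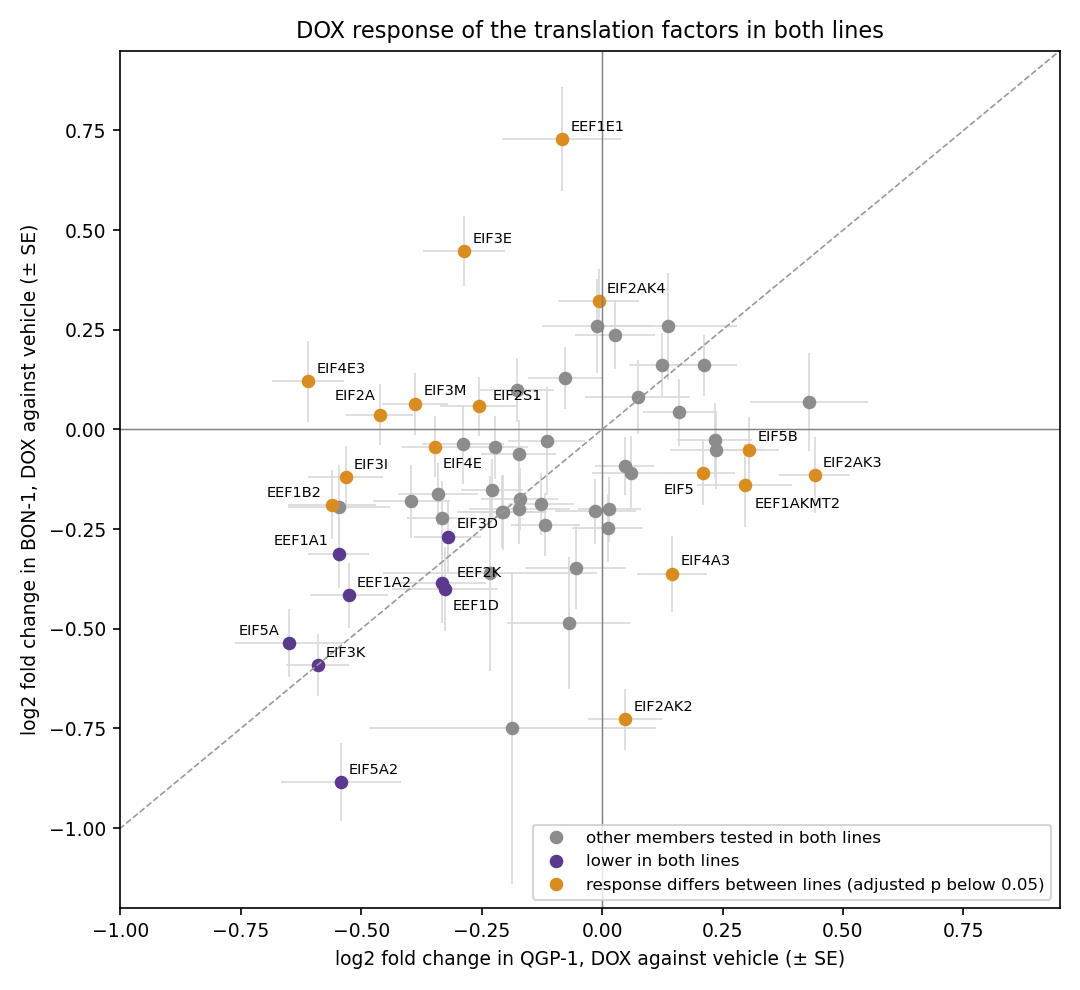
Log2 fold change of DOX against vehicle in QGP-1 (x axis) and BON-1 (y axis), with SE, for the 60 factors tested in both lines; the dashed line marks equal response. The 8 factors lower in both lines lie at lower left, and the 16 with a called difference in response, EIF3E and EIF2AK2 among them, lie off the dashed line.

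The lines differed in their DOX response for 16 of 60 factors, leaving aside EIF1AY, 10 with a higher value in BON-1 (16.7%) and 6 with a lower one (10.0%), while 8.80% of all 16598 genes tested were called higher and 7.92% lower. The counts among all genes, 1461 higher and 1315 lower, became 1123 and 1823 when libraries were scaled by their size alone, and the factors then gave 6 higher and 7 lower. For EEF1E1, EIF2A, EIF2AK2, EIF2AK3, EIF3E, EIF3M, EIF4A3 and EIF4E3 the call held with any one library left out. Of the 12 such fits EIF3I passed in 11 and was lost without BON-1 DOX library 1 (edgeR adjusted p = 0.0566), EIF5 and EIF5B passed in 6, EIF2AK4 in 4, EEF1AKMT2 and EIF4E in 3, and EEF1B2 and EIF2S1 in 2. The number of higher differences fell to 5 without BON-1 DOX library 1 and to 6 without QGP-1 DOX library 2 or BON-1 vehicle library 3, and the number of lower ones to 3 without QGP-1 vehicle library 1 or 2 or BON-1 DOX library 1.

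In vehicle libraries 27 of 60 factors were higher (45.0%) and 19 lower (31.7%) in BON-1 than in QGP-1, without EIF1AY, which passed the filter through BON-1 alone. Among all genes 37.5% were higher and 37.5% lower, and the share called in either direction, 76.7% of the factors, was near the 74.9% of all genes. Per length and within each line, and leaving aside EIF4A1, EIF3C and EIF3CL, whose rows give no level, EEF1A1 was the most abundant factor in both, at 497 ± 31 TPM in QGP-1 and 1021 ± 202 in BON-1 (SD, n = 3). EEF2 with 208 ± 37, EIF5A with 149 ± 8 and EIF3E with 137 ± 5 followed in QGP-1. EIF3E with 556 ± 124, EEF2 with 415 ± 61 and EIF4G2 with 340 ± 53 followed in BON-1, where the libraries of each of these 3 overlapped those of the next, and EIF1, at 135 ± 11 in QGP-1, overlapped with both EIF5A and EIF3E, as did EEF1G, at 129 ± 22. The TPM levels of the lines are not set against each other, since the 3 small RNAs named above took 71.2% to 80.3% of TPM in QGP-1 libraries and 50.9% to 74.3% in BON-1 libraries.

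Of 48 other genes of translation from a list of regulators, termination, recycling, modification and mitochondrial factors, 46 were tested in QGP-1, with 11 lower and 9 higher (17.7% and 17.3% of all genes were), and 47 in BON-1, with 5 lower and 6 higher (18.3% and 17.0% of all genes were). Without BON-1 DOX library 1 the 5 lower became 3. TPM gave 29 higher and 7 lower in QGP-1 and 0 and 2 in BON-1 when centred without the filter, and 37 and 1, then 0 and 1, when not centred. Centred without the filter, all genes gave 6676 higher and 9527 lower of 21382 in QGP-1, and 472 and 770 of 19630 in BON-1. Not centred, they gave 9149 and 89 of 10561, then 34 and 335 of 11954. In both lines DHPS and MTIF3 were lower and PPP1R15A and PPP1R15B higher. MTIF3, the mitochondrial initiation factor 3, fell the most, from 42.2, 44.03 and 46.2 CPM to 23.0, 18.9 and 19.8 in QGP-1 (log2 fold change -1.10 ± 0.10, edgeR adjusted p = 1.95e-06) and from 29.8, 27.2 and 31.3 to 18.3, 14.7 and 16.8 in BON-1 (-0.83 ± 0.12, edgeR adjusted p = 3.33e-06). Of the 5 proteins listed as binding eIF4E or inhibiting eIF4A, 4 were tested, with 1 lower in QGP-1 and 1 lower and 1 higher in BON-1. EIF4EBP1, which restrains eIF4E, passed in neither line (-0.19 ± 0.08 and -0.13 ± 0.13, edgeR adjusted p = 0.0954 and 0.456), and its relative EIF4EBP2 was lower in QGP-1, from 412, 410.0 and 389 to 286, 314 and 312 (-0.41 ± 0.07, edgeR adjusted p = 0.000312). PDCD4, which blocks eIF4A, was lower in BON-1 (-0.40 ± 0.12, edgeR adjusted p = 0.0108), a call lost without vehicle library 1 (0.05397) or DOX library 1 (0.08496), and read -0.03 ± 0.08 in QGP-1. CYFIP1, which binds eIF4E, was higher in BON-1 (0.25 ± 0.08, edgeR adjusted p = 0.0139, passing in 3 of 6 fits with 1 library left out) and read 0.12 ± 0.08 in QGP-1.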

How the data were processed

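The authors sequenced RNA of 12 cultures, isolated with the RNeasy Plus kit and made into stranded, poly(A)-selected libraries. The submitters' processing notes name STAR, DESeq2 and GRCh38 (hg38), whereas the paper's text gives GRCh38.74. The program that counted reads, its strand setting and its handling of reads that match several places are not given in the sources used here. The authors deposited raw read counts per gene, without normalization, and TPM values per gene for each line. Libraries held 38224144 to 50525926 counts in QGP-1 and 15981954 to 28484324 in BON-1, and replicates differed by more than sampling noise (chi-square per gene 5.93 to 29.7). The labels speak of cells cultured in triplicate, and p-values measure the spread between these libraries. Unused columns with values of single libraries numbered 0.

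Counts were tested within each line (3 vehicle against 3 DOX) with edgeR 4.0.16 in R 4.3.3, using its filter on low counts, TMM normalization and Benjamini-Hochberg adjustment over the genes tested. The SE is the log2 fold change divided by the square root of F. Differences between the lines and vehicle levels came from 1 fit of the 12 libraries over 16598 genes. CPM values were scaled by TMM within each line, except those of CHGA, SYP and INSM1, which are relative to the library total. Paralog shares are of TPM within a library, with exact two-sided permutation tests. The code was tested on simulated data. Sequences are from RefSeq (GRCh38.p14), and shared exons and 50-base stretches from GENCODE v44. A missing entry left 13 genes without a window. Alternatives were DESeq2 1.42.0, library size, median-of-ratios size factors, no filter, a minimum of 10 counts in each library, a block for the replicate number, a joint fit of both lines, limma 3.58.1 on log2(TPM + 1) where the mean TPM reached 1 (centred, not centred, with 0.1 added, or without the filter), raw counts for paralog shares, and leaving out each library.

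The genes and lists were chosen with earlier results of these data known. Genes were named by rule: MUC1 and MYC, factors called in both lines or with a called difference between lines, the 5 with the largest calls in each direction and line, 9 core factors, the paralogs of 7 pairs, and other translation genes called alike in both lines together with EIF4EBP1, EIF4EBP2 and PDCD4. Other genes named were chosen after their values were seen. EIF1AY, a Y-linked gene, passed the filter in BON-1 only and its level is not reported. EIF3C, EIF3CL, EIF4A1 and EIF4E1B passed it in neither line.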

Additional observations from a re-analysis of the deposited data

Results flagged for a closer look

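The DOX response of 16 factors differed between the lines by a test of the difference itself (the interaction of line and DOX in edgeR's quasi-likelihood test, BON-1 minus QGP-1 on the log2 scale, n = 3 libraries per group). They are 26.7% of 60 factors, leaving aside EIF1AY, beside 16.7% of all genes. It was higher in BON-1 for EEF1E1 (0.82), EIF3E (0.75), EIF4E3 (0.74), EIF2A (0.51), EIF3M (0.46), EIF3I (0.42), EEF1B2 (0.38), EIF2AK4 (0.34), EIF2S1 (0.32) and EIF4E (0.31). It was lower in BON-1 for EIF2AK2 (-0.76), EIF2AK3 (-0.55), EIF4A3 (-0.50), EEF1AKMT2 (-0.43), EIF5B (-0.34) and EIF5 (-0.31). Of the 12 fits with 1 library left out, EIF3I passed in 11, EIF5B and EIF5 in 6, EIF2AK4 in 4, EEF1AKMT2 and EIF4E in 3, and EEF1B2 and EIF2S1 in 2, and the other 8 passed in every one. EIF3E is the only one of them called in each line in opposite directions. The adjusted p-values ran from 2.96e-05 for EIF2AK2 to 0.0499 for EEF1B2.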

How the results depend on the processing

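The 23 lower and 7 higher calls in QGP-1 and the 15 and 4 in BON-1 stayed within 1.5 times under DESeq2, median-of-ratios factors, no count filter, at least 10 counts in every library, the replicate block and both lines in 1 fit. Scaling by library size gave 25 lower in BON-1 (3149 of 14625 genes were), and for the difference between lines 6 higher (1123 of 16598 genes were). The count of 8 factors lower in both lines, whose recomputation was chosen after seeing the data, was 8 with the block, 11 by library size and 12 with no filter. TPM gave other counts, and the cause was not tested. Without centring, TPM moved the median of all genes by 0.59 in QGP-1 and -0.31 in BON-1: factors gave 49 higher and 0 lower in QGP-1, 0 and 2 in BON-1 and 0 lower in both, and other translation genes 37 and 1, then 0 and 1. All genes gave 9149 higher and 89 lower of 10561 in QGP-1 in that fit, and 34 and 335 of 11954 in BON-1. Centred and without the filter, TPM gave 33 higher and 6 lower factors in QGP-1, 0 and 4 in BON-1 and 3 lower in both, and other genes 29 and 7, then 0 and 2. All genes gave 6676 higher and 9527 lower of 21382 in QGP-1 there, and 472 and 770 of 19630 in BON-1. With 0.1 added, 3 factors were higher in QGP-1, and 1842 of 10561 genes were. With TPM the median of factors minus that of all genes was -0.061 in QGP-1 and -0.15 in BON-1, centred or not, and 0.30 and -0.29 centred without the filter. Centred TPM with the filter called 1857 genes higher and 3049 lower in QGP-1, against 2610 and 2676. In the centred QGP-1 fit without the filter 11 of the 23 lower factors and 16 of the 30 not called turned positive. The factors named by rule that turned and passed in either fit were EIF3D (0.076), EIF3E (0.12), EEF1E1 (0.24), EIF2AK4 (0.25), EIF2S1 (0.13), EIF3M (0.020), EIF4E (0.0095), EIF4G1 (0.37), EIF1B (0.20) and EIF4G3 (0.22). Of the other translation genes named by rule, EIF4EBP1 (0.21) and PDCD4 (0.30) turned and passed in either fit. EEF2 (0.21) and EIF4E2 (0.15) turned without passing in either. Leaving out 1 library gave 3 to 5 higher factors in QGP-1, 5 to 9 higher and 3 to 6 lower differences between lines, 3 to 7 other genes lower in BON-1 (3 without DOX library 1), and medians of -0.17 to -0.10 in QGP-1 and -0.14 to -0.086 in BON-1. Replicate numbers did not pair the libraries (correlations of deviations -0.04 to 0.07). With the replicate number as a block, 3 differences between lines were lower in place of 6, without EEF1AKMT2, EIF5B and EIF5 (edgeR adjusted p = 0.0523, 0.0539 and 0.0552), and 9 were higher in place of 10, without EEF1B2 (0.0675).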
